A study of Mus musculus with 12 samples.

Results

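GSC-H cells cultured for 24 h with phosphate-buffered saline (PBS) in hypoxia (1% O2) were compared with the same cells cultured with PBS in normoxia (21% O2 in the sample labels), and the comparison takes in each probe set that carries 1 gene symbol, 19572 of 22206, which stand for 19505 genes. Its differences come from 6 of the 12 arrays of the series, 3 labelled hypoxia and PBS and 3 labelled normoxia and PBS. The other 6 arrays are from cells given 3 mM doranidazole, a 2-nitroimidazole radiosensitizer, in hypoxia or in normoxia. All 12 arrays entered the fit that estimated the spread behind each p-value. GSC-H is a line of mouse glioma stem cells: neural stem cells without Ink4a/Arf were made to overexpress H-Rasv12, and the cells used here were recovered from a late tumor that they formed in mouse brain. All 4 groups share this genotype and a serum-free medium with epidermal and basic fibroblast growth factors, so the hypoxia response is that of 1 Ras-driven line under mitogens. The samples are labelled as biological replicates, and the legend of the study calls them independent samples of a single experiment. Each p-value thus reflects the spread of arrays within that experiment, and part of that spread may be technical. In RNA from a whole culture, fewer cells of a kind and less RNA per cell cannot be told apart.

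Cells sense oxygen mainly through prolyl hydroxylases of the Egln family, which use oxygen to mark the alpha subunits of hypoxia-inducible factor (HIF) for destruction through the von Hippel-Lindau protein. When oxygen is low the alpha subunit persists, pairs with Arnt and binds DNA at a short core, ACGTG or GCGTG, near genes of glucose uptake, glycolysis, acid export, blood vessel growth, collagen hydroxylation and mitophagy. The control of the alpha subunit is largely on the protein, which an array does not see, whereas the transcripts of its targets are what an array measures.

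The promoters of 5 genes are shown because these genes had the largest increases among the members of the glycolysis and HIF target lists whose window holds ACGTG. Each window is the RefSeq sequence of mouse build GRCm38.p6 that runs from 250 bases before to 50 bases after an annotated start, printed 5′ to 3′ on the strand of the gene, with ACGTG and its reverse complement CACGT in capitals: Car9 at chr4:43506776-43507075 (plus strand), Slc16a3 at chr11:120948817-120949116 (plus strand), Ak4 at chr4:101419453-101419752 (plus strand), Bnip3 at chr7:138909457-138909756 (minus strand), P4ha2 at chr11:54100674-54100973 (plus strand).
Car9: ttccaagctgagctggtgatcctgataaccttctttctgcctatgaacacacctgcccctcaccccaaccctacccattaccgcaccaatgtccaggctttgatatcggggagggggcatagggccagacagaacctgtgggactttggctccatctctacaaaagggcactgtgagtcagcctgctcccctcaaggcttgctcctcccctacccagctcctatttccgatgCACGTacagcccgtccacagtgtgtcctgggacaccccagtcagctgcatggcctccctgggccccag
Slc16a3: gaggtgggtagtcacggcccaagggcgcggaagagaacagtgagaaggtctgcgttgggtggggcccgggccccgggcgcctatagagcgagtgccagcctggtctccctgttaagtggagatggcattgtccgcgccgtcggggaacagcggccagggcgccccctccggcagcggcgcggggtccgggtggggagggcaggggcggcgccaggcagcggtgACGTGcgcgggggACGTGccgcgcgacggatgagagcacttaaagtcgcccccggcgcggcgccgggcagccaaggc
Ak4: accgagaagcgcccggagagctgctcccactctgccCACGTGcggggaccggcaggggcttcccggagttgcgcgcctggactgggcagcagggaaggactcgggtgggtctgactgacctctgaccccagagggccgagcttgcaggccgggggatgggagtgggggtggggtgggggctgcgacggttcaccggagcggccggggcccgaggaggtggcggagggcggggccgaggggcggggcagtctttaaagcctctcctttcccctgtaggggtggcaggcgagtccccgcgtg
Bnip3: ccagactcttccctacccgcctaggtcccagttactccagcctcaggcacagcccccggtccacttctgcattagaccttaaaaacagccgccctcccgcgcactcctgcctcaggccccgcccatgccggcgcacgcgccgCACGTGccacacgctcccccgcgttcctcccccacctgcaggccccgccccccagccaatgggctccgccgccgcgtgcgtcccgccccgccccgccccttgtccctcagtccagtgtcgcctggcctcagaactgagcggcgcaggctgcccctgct
P4ha2: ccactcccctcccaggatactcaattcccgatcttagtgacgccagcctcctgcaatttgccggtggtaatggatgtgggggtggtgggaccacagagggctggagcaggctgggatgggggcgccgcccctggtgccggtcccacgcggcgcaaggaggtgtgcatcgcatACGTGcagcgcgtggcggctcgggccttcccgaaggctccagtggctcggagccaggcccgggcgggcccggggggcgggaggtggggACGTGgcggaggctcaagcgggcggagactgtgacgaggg
The letters lie 18 bases before the start in Car9, 27 and 14 bases before it in Slc16a3, 214 bases before it in Ak4 and 108 bases before it in Bnip3, and in Ak4 and Bnip3 CACGT and ACGTG overlap in a palindrome. P4ha2 has them 78 bases before the start and again at position 11 after it. Of all windows of this length for measured genes, 21.4% (4102 of 19143) hold ACGTG on either strand, and 40.0% hold GCGTG or its reverse complement CACGC. The shares were 61.5% (32 of 52 windows) for both cores among the members of the glycolysis and HIF target lists that rose. Among all genes that rose, ACGTG stood in 34.7% of 288 windows, and among all genes that fell in 35.3% of 102 windows, nearly the same share for both directions. For GCGTG these shares were 53.1% and 55.9%. Windows were at hand for 224 of the 285 genes that rose and 83 of the 106 that fell, some with several starts. A match of 5 letters is a description of the window and not a binding site.

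Array medians lay between 4.65 and 4.88 on the log2 scale over the 12 arrays, and the median difference of all genes between hypoxia and normoxia was -0.0084, so the deposited signals showed no general shift. Because their scaling is not stated, they cannot show whether the amount of RNA differed between the groups. The neural stem cell genes Sox2 and Nes were strongly measured, Sox2 at 14.20, 14.67 and 14.22 in hypoxia and 13.71, 14.30 and 13.82 in normoxia. Of 8 neural and glioma stem markers, 7 had a mean above 5 over the 6 PBS arrays. Prom1, with a mean of 3.3, did not. The probe set for Cdkn2a, the gene of Ink4a and Arf, lay between 2.00 and 2.42 on these 6 arrays, near the lowest signals of the array, although nothing read here places its probes relative to the deletion. Markers of microglia (5 measured, 0 with a mean above 5) and of endothelium (6 measured, 0 above 5) were at low signals in both groups. A mean above 5 was reached by 1 of 5 astrocyte, 1 of 5 oligodendrocyte lineage, 1 of 5 neuron and 2 of 6 fibroblast and pericyte markers. The neuron marker was Tubb3, with a mean of 10.3. Of the astrocyte markers Aqp4 had 6.41, 6.81 and 6.87 in hypoxia, against 6.39, 4.42 and 5.33 in normoxia, and Gfap had 3.60, 3.29 and 3.20 in hypoxia, against 3.80, 3.86 and 3.79 in normoxia. Hypoxia array 3 stood apart in its cell cycle genes, as described below. Its list medians of HIF targets and of glycolysis genes were also the lowest of its group. Relative to the normoxia mean, the HIF target median was 2.26, 2.87 and 1.51 on hypoxia arrays 1, 2 and 3. The glycolysis median was 1.38, 1.64 and 0.88 on these arrays.

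With all arrays in the fit and weighted alike, hypoxia altered a modest number of genes and raised more than it lowered. Between the PBS groups 285 genes were higher in hypoxia, 1.46% of the 19505 genes, and 106 were lower, 0.543%, at an adjusted p under 0.05 in limma. For each of these 391 genes the 3 hypoxia arrays lay wholly on one side of the 3 normoxia arrays. That separation was also a condition for the leading 12 genes of each direction named below. The share of all genes so separated is not given here. The rise was above 2-fold for 254 of the 285 genes and above 4-fold for 106 of them, with a median difference of 1.68 on the log2 scale, whereas the fall was above 2-fold for 87 of the 106 genes and above 4-fold for 9, with a median of -1.25. Over all probe sets, unnamed ones included, 439 passed, 324 higher and 115 lower. The 2 directions rested on the arrays to different degrees. Of the 285 genes that rose, 109 kept their call whichever of the 12 arrays was left out, against 10 of the 106 that fell. With the 6 PBS arrays alone in the fit, 88 of the 285 and 8 of the 106 kept theirs. Without hypoxia array 1 or 2, 151 probe sets passed in each case, and 212, 243 and 248 passed without normoxia arrays 1, 2 and 3. Without hypoxia array 3 the count was 1432, with 654 higher and 778 lower. There, and with array weights (1039 higher and 1234 lower), more probe sets fell than rose. Of the 285 genes that rose, 89 are members of at least 1 of the 43 gene lists used here. The shares of 1.46% higher and 0.543% lower are the background for the counts of each list below.

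The 5 largest increases were those of Car9, Slc16a3, Ak4, Adm and Bnip3. Car9, a carbonic anhydrase of the cell surface that helps cells export acid, had signals of 14.96, 15.54 and 14.41 on the 3 hypoxia arrays, against 7.13, 8.08 and 5.01 on the normoxia arrays (difference 8.23 ± 0.59, adjusted p = 2.17e-05). Slc16a3, the lactate exporter MCT4, had 14.05, 13.34 and 12.95 in hypoxia, against 8.49, 6.60 and 5.10 in normoxia (6.72 ± 0.64, adjusted p = 0.000109). In both genes the lowest hypoxia array was well above the highest normoxia array. Ak4, an adenylate kinase of mitochondria, had 11.20, 11.32 and 10.88 in hypoxia, against 5.59, 3.84 and 4.25 in normoxia (6.57 ± 0.36, adjusted p = 1.72e-06). Bnip3, a receptor on the outer mitochondrial membrane that marks mitochondria for autophagy, had 14.49, 14.73 and 14.09 in hypoxia, against 9.73, 9.19 and 6.57 in normoxia (5.94 ± 0.64, adjusted p = 0.000291). Adm, the precursor of the vasodilator peptide adrenomedullin, had 15.13, 15.32 and 14.61 in hypoxia, against 10.57, 8.13 and 7.80 in normoxia (6.19 ± 0.56, adjusted p = 7.86e-05). The normoxia arrays were spread more widely than the hypoxia arrays in each of these 5 genes, and no array of one group reached the range of the other. Of 26 measured genes of acid-base transport, Car9, Slc16a3 and Bsg (1.18 ± 0.21), the partner of lactate transporters at the cell surface, were the 3 that rose, and the list median was 0.04. Bsg lost its call without hypoxia PBS arrays 1 or 2 or normoxia PBS arrays 1 or 3 (adjusted p 0.0552 to 0.0898).

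Among the other genes of the leading 12, Pfkp, a phosphofructokinase, had 13.54, 14.19 and 12.57 in hypoxia, against 8.43, 9.53 and 7.64 in normoxia (4.90 ± 0.46, adjusted p = 9.96e-05). Pdk1, the kinase that switches off pyruvate dehydrogenase, had 14.54, 14.77 and 14.78 in hypoxia, against 10.54, 10.57 and 8.72 in normoxia (4.75 ± 0.42, adjusted p = 6.9e-05). P4ha2, a catalytic subunit of collagen prolyl 4-hydroxylase, had 13.90, 14.27 and 13.32 in hypoxia, against 9.87, 9.27 and 9.29 in normoxia (4.35 ± 0.27, adjusted p = 5.22e-06). The groups stood clearly apart in all 3, and in Pdk1 and P4ha2 the 3 hypoxia arrays lay close together. Igfbp5, a secreted binding protein of insulin-like growth factors, had 15.04, 15.22 and 13.17 in hypoxia, against 9.02, 9.04 and 9.14 in normoxia (5.41 ± 0.46, adjusted p = 5.68e-05), and the 3 normoxia arrays were nearly equal. Stc1, the secreted glycoprotein stanniocalcin 1, had 15.59, 16.19 and 15.16 in hypoxia, against 12.23, 10.94 and 10.93 in normoxia (4.27 ± 0.46, adjusted p = 0.000297). Kbtbd11 had 9.01, 9.00 and 8.18 in hypoxia, against 4.73, 3.53 and 2.93 in normoxia (5.00 ± 0.39, adjusted p = 2.87e-05). The remaining gene of the 12, Ndrg1, a cytoplasmic protein induced by hypoxia and by other stresses, was less secure: its signals were 13.94, 15.22 and 11.78 in hypoxia, against 9.27, 9.83 and 4.51 in normoxia (5.78 ± 1.28, adjusted p = 0.0381). It kept its call without hypoxia PBS array 3, normoxia PBS array 2, hypoxia doranidazole array 3 or normoxia doranidazole array 2 and lost it without any other array (adjusted p 0.0506 to 0.218). The other 11 kept their calls whichever array was left out.

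**Figure D1:**
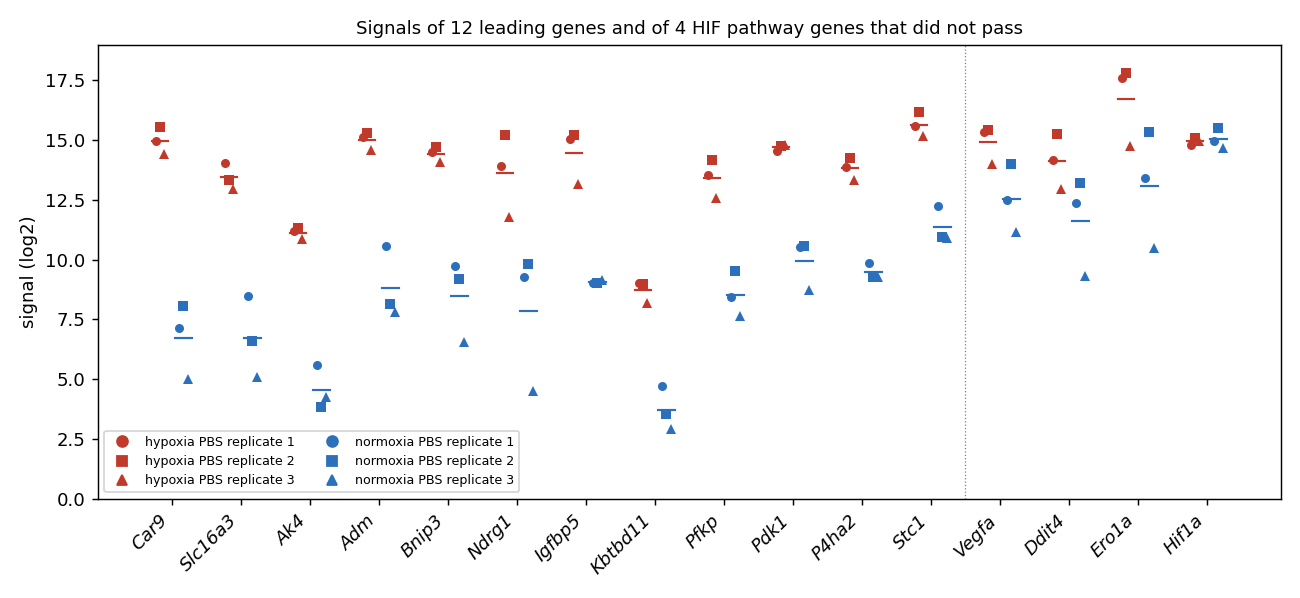
Signal on the log2 scale (vertical axis) of 16 genes on each PBS array, with the 3 hypoxia arrays in red to the left of the 3 normoxia arrays in blue and horizontal bars for the group means. In the 12 genes left of the dotted line, those with the largest increases, no hypoxia array reaches the normoxia range, as their selection required. In Vegfa, Ddit4, Ero1a and Hif1a to its right the groups overlap.

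Genes of glycolysis rose at several steps. Of 30 measured genes of glucose uptake, glycolysis, lactate and glycogen, 15 were higher in hypoxia and 0 lower, against a background of 1.46% higher over all genes, and their median difference was 1.31 against -0.0084 for all genes. At the entry, the glucose transporters Slc2a1 (2.84 ± 0.34, adjusted p = 0.000804) and Slc2a3 (3.10 ± 0.28, adjusted p = 8.05e-05) rose, with Slc2a1 at 18.06, 18.28 and 17.49 in hypoxia, against 15.53, 15.45 and 14.33 in normoxia. The hexokinases Hk1 (1.82 ± 0.21) and Hk2 (2.63 ± 0.30) both rose. At the committed step Pfkl rose beside Pfkp, with 14.84, 14.79 and 15.27 in hypoxia, against 12.54, 12.36 and 11.62 in normoxia (2.79 ± 0.25, adjusted p = 7.86e-05), while the muscle form Pfkm had 9.57, 10.29 and 9.86 in hypoxia, against 9.86, 9.74 and 9.26 in normoxia and a difference of 0.29 ± 0.21 (95% interval -0.17 to 0.75). Pfkfb3, which makes the activator of phosphofructokinase, rose by 4.02 ± 0.32, and its relative Pfkfb4 had a difference of 0.20 ± 0.25 (95% interval -0.33 to 0.73).

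In the lower part of the pathway Aldoa (1.15 ± 0.16), Tpi1 (1.77 ± 0.16), Pgk1 (2.93 ± 0.20), Pgam1 (2.30 ± 0.24) and Ldha (1.85 ± 0.16) passed. Ldha, which turns pyruvate to lactate, had 18.30, 18.14 and 18.08 in hypoxia, against 16.41, 16.37 and 16.21 in normoxia, and Pgk1, which makes ATP, had 17.84, 18.04 and 17.69 in hypoxia, against 15.06, 15.22 and 14.51 in normoxia. In both genes the arrays of a group lay close together. Gapdh had 18.88, 18.77 and 18.71 in hypoxia, against 18.46, 18.51 and 18.53 in normoxia, a difference of 0.29 ± 0.16 (95% interval -0.05 to 0.63, adjusted p = 0.476). Pkm, the last enzyme of glycolysis, had 18.60, 18.81 and 18.71 in hypoxia, against 18.19, 18.39 and 18.02 in normoxia, with a difference of 0.51 ± 0.16 and adjusted p = 0.14. The hypoxia arrays were above the normoxia arrays in both, by amounts that did not pass. The measured enolases Eno2 and Eno3 had differences of -0.19 and 0.14 at low signals. Their means were 3.91 and 4.21 in hypoxia, against 4.10 and 4.07 in normoxia. Eno1, and Gpi1 of the upper pathway, were not among the measured genes, so their response is not known here. The other lactate genes moved apart from Ldha and Slc16a3: Ldhb had 13.86, 13.39 and 14.18 in hypoxia, against 14.33, 14.53 and 14.52 in normoxia (-0.65 ± 0.26, adjusted p = 0.262), and the transporter Slc16a1 had a difference of 0.05 ± 0.22 (95% interval -0.44 to 0.53). In glycogen metabolism Pgm1 (4.11 ± 0.31) and the synthase Gys1 (2.70 ± 0.35) rose, and the branching enzyme Gbe1 missed the threshold (1.47 ± 0.35, adjusted p = 0.0549). All 15 calls held whichever array was left out, and with the 6 PBS arrays alone in the fit 14 members passed.

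**Figure D2:**
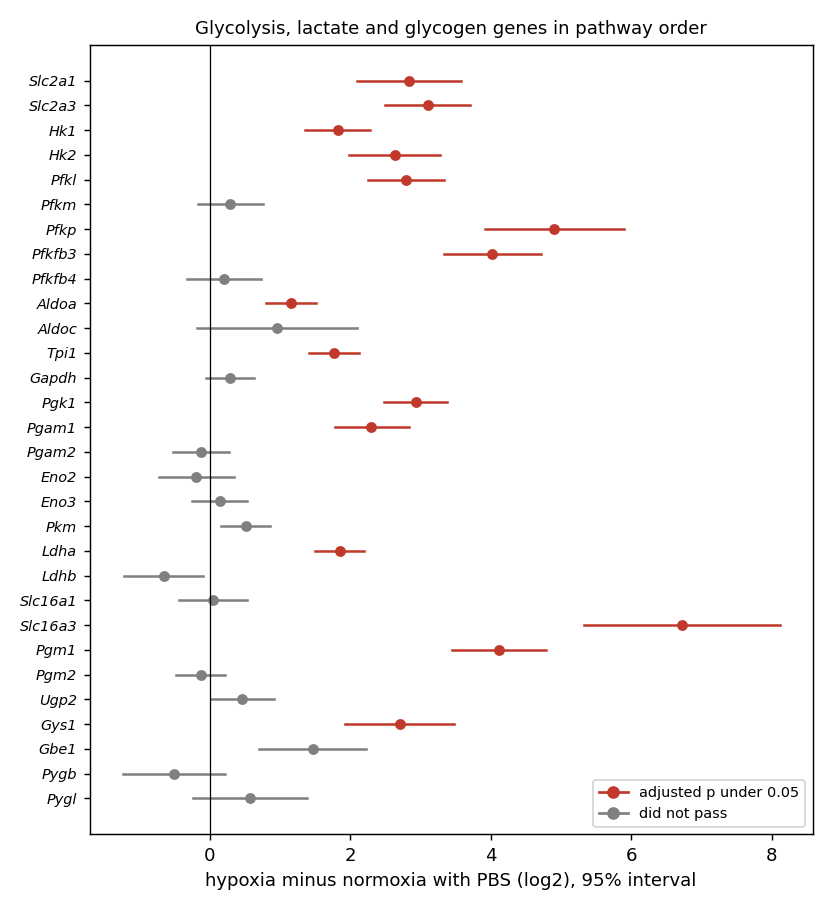
Difference between hypoxia and normoxia with PBS on the log2 scale (horizontal axis, points) with 95% intervals (lines) for the 30 measured genes of the glycolysis list, ordered from glucose entry at the top to lactate export and then glycogen at the bottom. The 15 genes in red passed, among them at least 1 gene of glucose uptake, the hexokinase, phosphofructokinase, aldolase, phosphoglycerate and lactate dehydrogenase steps, and those in grey did not.

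Egln1, Egln3 and Vhl of the HIF pathway rose, and no HIF subunit passed. Of 26 measured subunits, sensors and regulators, 3 were higher and 0 lower, with a median difference of 0.09. Hif1a had 14.82, 15.08 and 14.96 in hypoxia, against 14.97, 15.51 and 14.68 in normoxia (-0.10 ± 0.22, 95% interval -0.58 to 0.38), and its partner Arnt had a difference of 0.10 ± 0.20 (95% interval -0.34 to 0.53). Epas1, which encodes the HIF-2 alpha subunit, was near the low end of the signals at 4.61, 4.24 and 4.44 in hypoxia, against 4.09, 4.39 and 4.38 in normoxia. The 3 that rose act in HIF breakdown. Egln3, a prolyl hydroxylase, had 16.59, 17.10 and 16.17 in hypoxia, against 13.37, 12.78 and 11.42 in normoxia (4.09 ± 0.42, adjusted p = 0.000193). Egln1, the main prolyl hydroxylase of most cells, had 15.38, 15.69 and 15.08 in hypoxia, against 12.66, 11.62 and 11.65 in normoxia (3.41 ± 0.26, adjusted p = 2.87e-05). Neither had a hypoxia array within the normoxia range, while Egln2 had a difference of 0.15 ± 0.16 (95% interval -0.19 to 0.50). Vhl, whose protein marks the hydroxylated subunit for destruction, had 9.09, 9.63 and 9.10 in hypoxia, against 7.64, 8.43 and 7.38 in normoxia (1.46 ± 0.30, adjusted p = 0.0262) and lost its call without hypoxia PBS arrays 1 or 2 or normoxia PBS arrays 1 or 3 (adjusted p 0.0822 to 0.156).

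Outside glycolysis, 30 of 55 measured HIF target genes were higher and 0 lower, with a median difference of 2.20, and 51 of the 55 had a difference above 0. With 1 array left out between 23 and 34 of them rose, the fewest without hypoxia array 1 and the most without hypoxia array 3, and 23 of the 30 kept their calls whichever array was left out. Fam162a, a mitochondrial protein, had 14.24, 14.30 and 14.13 in hypoxia, against 10.27, 10.00 and 9.80 in normoxia (4.20 ± 0.21, adjusted p = 1.03e-06), with little spread within either group. Bnip3l, the relative of Bnip3 in mitophagy, had 14.68, 15.26 and 14.36 in hypoxia, against 11.16, 10.90 and 10.82 in normoxia (3.81 ± 0.29, adjusted p = 2.63e-05). Higd1a, a small protein of the inner membrane, rose by 3.94 ± 0.39. In all 3 the groups were far apart. Of 35 measured mitophagy and autophagy genes, Bnip3 and Bnip3l were the 2 that passed, and the median of that list was 0.13. Of the 35, 5 rose without hypoxia array 3.

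Bhlhe40, a repressor of the circadian clock, had 14.30, 15.41 and 14.05 in hypoxia, against 11.84, 10.16 and 10.60 in normoxia (3.72 ± 0.46, adjusted p = 0.000966). Its relative Bhlhe41 had 8.45, 9.82 and 7.75 in hypoxia, against 6.23, 5.80 and 5.83 in normoxia (2.72 ± 0.53, adjusted p = 0.0214) and lost its call without hypoxia PBS arrays 1 or 2 or normoxia PBS arrays 1, 2 or 3 (adjusted p 0.0565 to 0.0977). Mxi1, an antagonist of Myc, rose by 3.22 ± 0.44, and the corepressor Rcor2 by 3.74 ± 0.48. Among secreted factors, Mif had 14.89, 14.59 and 14.85 in hypoxia, against 12.95, 12.63 and 12.70 in normoxia (2.01 ± 0.17, adjusted p = 5.68e-05), with little spread within either group and no overlap. Hilpda, which coats lipid droplets and restrains their breakdown, rose by 2.18 ± 0.28. Zfp395 (1.83 ± 0.24) and Ankrd37 (3.82 ± 0.52) rose as well. Wsb1 (1.18 ± 0.22, adjusted p = 0.0158) lost its call without hypoxia PBS arrays 1 or 2 or normoxia PBS array 1 (adjusted p 0.0718 to 0.0977). The 4 members below 0 were Ppfia4, Car12, Epo and Edn1, which had differences between -0.29 and -0.09. Epo, the hormone of red cell production, was at 2.27, 2.48 and 2.23 in hypoxia, against 2.32, 2.42 and 2.58 in normoxia, near the lowest signals of the array, and the carbonic anhydrase Car12 at 2.63, 2.65 and 2.55 in hypoxia, against 2.66, 2.83 and 2.82 in normoxia.

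Several well-known HIF targets did not pass, and their arrays were far apart within the groups. Vegfa, the main growth factor of blood vessels, had 15.36, 15.42 and 14.01 in hypoxia, against 12.48, 14.02 and 11.16 in normoxia (2.38 ± 0.70, adjusted p = 0.113). Ddit4, an inhibitor of mTORC1, had 14.17, 15.27 and 12.98 in hypoxia, against 12.36, 13.21 and 9.31 in normoxia (2.51 ± 0.86, adjusted p = 0.169). Ero1a, an oxidase of the endoplasmic reticulum, had 17.60, 17.81 and 14.77 in hypoxia, against 13.40, 15.35 and 10.51 in normoxia (3.64 ± 1.13, adjusted p = 0.132). In each, hypoxia array 3 was the lowest of its group, normoxia array 2 the highest of its own and normoxia array 3 the lowest, so that hypoxia array 3 fell below normoxia array 2. Vldlr, a lipoprotein receptor, had the same order, with 13.38, 13.97 and 11.54 in hypoxia, against 9.41, 12.44 and 7.83 in normoxia (3.07 ± 1.07, adjusted p = 0.181). The genes of the integrated stress response, which are driven by Atf4 when amino acids run short or proteins misfold, were spread in the same way. The median of the 36 measured members, relative to the normoxia mean, was 0.54, 0.45 and -1.13 on hypoxia arrays 1, 2 and 3, against -0.22, 1.76 and -1.47 on normoxia arrays 1, 2 and 3. The aminoacyl-tRNA synthetases, also Atf4 targets in part, had 0.08, -0.05 and -0.65 in hypoxia and -0.13, 0.78 and -0.63 in normoxia. Ndrg1, Vegfa, Ddit4 and Stc2 are on both the HIF and the stress response lists. Of the stress response list Ndrg1 alone passed, and its median difference was -0.09. The part of the stress response in the spread of these HIF targets was not tested. Without hypoxia array 3, Vegfa and Ero1a passed (adjusted p = 0.0423 and 0.031), and without normoxia array 2, Vegfa and Vldlr passed (adjusted p = 0.0463 and 0.0464).

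Collagen prolyl and lysyl hydroxylases use oxygen to stabilize and cross-link collagen. Of 17 measured collagen-modifying enzymes, 5 were higher: P4ha2, P4ha1 (2.09 ± 0.27), Plod1 (3.45 ± 0.32), Plod2 (3.25 ± 0.27) and P3h3 (0.98 ± 0.17). Without hypoxia array 1 or 2, and with the 6 PBS arrays alone in the fit, 4 of the list rose. Without hypoxia array 3, 7 did. Plod2, a lysyl hydroxylase, had 15.32, 15.91 and 14.90 in hypoxia, against 12.48, 12.05 and 11.85 in normoxia (3.25 ± 0.27, adjusted p = 5.68e-05). The groups of Plod2 did not overlap. Loxl3, a lysyl oxidase, was the 1 that fell, with 10.16, 10.74 and 11.16 in hypoxia, against 11.99, 12.26 and 12.42 in normoxia (-1.53 ± 0.31, adjusted p = 0.0264), and it lost its call without hypoxia PBS arrays 1 or 2 or normoxia PBS arrays 1, 2 or 3 (adjusted p 0.0579 to 0.135). Of the 32 measured collagen chains, the substrates of these enzymes, 0 passed (8 at an unadjusted p under 0.05, a level reached by 13.7% of all probe sets) and the median difference was 0.08. Among the chains 5 rose without hypoxia array 3, and with array weights 6 did. Col4a2 came closest, with 10.43, 10.50 and 9.49 in hypoxia, against 8.86, 8.91 and 9.22 in normoxia (1.15 ± 0.27, adjusted p = 0.0535).

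Of 28 measured histone, DNA and RNA demethylases that need oxygen, 7 were higher and 0 lower, with a median of 0.33. Kdm3a, which removes methyl groups from histone lysine, had 10.39, 10.75 and 9.94 in hypoxia, against 8.17, 7.52 and 7.41 in normoxia (2.66 ± 0.25, adjusted p = 0.000109). Jmjd6 had 11.93, 12.05 and 11.34 in hypoxia, against 9.31, 8.97 and 9.65 in normoxia (2.47 ± 0.25, adjusted p = 0.000197). Kdm4b had 8.90, 8.89 and 8.32 in hypoxia, against 6.44, 7.02 and 6.50 in normoxia (2.05 ± 0.23, adjusted p = 0.000509). In these 3 genes the lowest hypoxia array was well above the highest normoxia array. Kdm2a rose by 1.60 ± 0.21, and the other 3 were Kdm5b (1.87 ± 0.34), the DNA demethylase Tet1 (1.56 ± 0.37) and the RNA demethylase Alkbh5 (1.19 ± 0.20). With 1 array left out between 5 and 9 members rose, 5 without hypoxia array 1 or 2 and 9 without hypoxia array 3. Tet1 kept its call without hypoxia PBS array 3, normoxia PBS array 1 or hypoxia doranidazole array 3 and lost it without any other array (adjusted p 0.0597 to 0.248). Kdm5b lost its call without hypoxia PBS arrays 1 or 2 or normoxia PBS arrays 1 or 2 (adjusted p 0.0509 to 0.0843).

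In mitochondria the genes of oxidative metabolism lay slightly lower in hypoxia, mostly by amounts that did not pass singly. Of 36 measured nuclear subunits of complex I, 32 had a difference below 0, with a median of -0.43, and 0 passed downward (13 of the list at an unadjusted p under 0.05). Of 46 subunits of complexes II to V, 40 were below 0, with a median of -0.33 and 0 calls (16 at an unadjusted p under 0.05). Of 19 TCA cycle genes 18 were below 0, with a median of -0.44 and 0 calls (9 at an unadjusted p under 0.05). Of all probe sets, 13.7% were at an unadjusted p under 0.05. In complex I 3 genes, in complexes II to V 5 and in the TCA cycle 2 fell without hypoxia array 3, and with array weights 10, 9 and 6 did. The medians against -0.0084 for all genes were small, yet on each hypoxia array the list median of these 3 groups was below that on each normoxia array, as the plot of gene lists by array shows. The succinate dehydrogenase subunit Sdhb had 12.58, 12.29 and 12.39 in hypoxia, against 12.93, 12.93 and 12.93 in normoxia (-0.51 ± 0.16, adjusted p = 0.143). The complex I subunit Ndufs8 had a difference of -0.76 ± 0.19 (adjusted p = 0.0682). Ndufv3 went the other way, with 6.30, 6.44 and 5.65 in hypoxia, against 4.98, 4.64 and 4.79 in normoxia (1.33 ± 0.22, adjusted p = 0.00724), and it lost its call without hypoxia PBS array 1 (adjusted p = 0.0527). The cytochrome oxidase subunits Cox4i1 and Cox4i2, an oxygen-dependent pair in other cells, had differences of -0.36 ± 0.26 (95% interval -0.92 to 0.19) and -0.08 ± 0.27 (95% interval -0.67 to 0.50), with Cox4i2 near the lowest signals of the array at 3.02, 3.59 and 3.15 in hypoxia, against 3.56, 3.63 and 2.82 in normoxia.

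Of 13 measured genes of pyruvate entry into mitochondria 2 were higher and 1 lower, against 1.46% and 0.543% of all genes. The list median was -0.26, and with the 6 PBS arrays alone in the fit 1 was higher and 0 lower. Pdk1 rose, as given above, and Pdk3, another pyruvate dehydrogenase kinase, had 8.24, 8.38 and 8.70 in hypoxia, against 7.57, 7.32 and 7.60 in normoxia (0.94 ± 0.19, adjusted p = 0.0224). It lost its call without hypoxia PBS arrays 1 or 2 or normoxia PBS arrays 1, 2 or 3 (adjusted p 0.0527 to 0.0917). Pdhx, a structural subunit of pyruvate dehydrogenase, had 6.07, 5.58 and 6.11 in hypoxia, against 7.28, 7.48 and 6.61 in normoxia (-1.21 ± 0.26, adjusted p = 0.0339) and lost its call without hypoxia PBS arrays 1 or 2, normoxia PBS arrays 1 or 2 or normoxia doranidazole arrays 1 or 3 (adjusted p 0.0501 to 0.198). Of 74 measured mitochondrial ribosomal proteins, Mrpl2 (-0.89 ± 0.17) and Mrpl35 (95% interval -1.43 to -0.57) fell, 66 were below 0 and the median was -0.57. Without hypoxia array 3, 9 members fell, and without hypoxia array 1, hypoxia array 2 or normoxia array 2, 0 did. The mitochondrial chaperonin Hspe1, the partner of Hspd1 in protein folding, had 10.76, 10.18 and 11.17 in hypoxia, against 12.04, 12.02 and 12.22 in normoxia (-1.39 ± 0.22, adjusted p = 0.00584), a fall that held whichever array was left out. With the 6 PBS arrays alone in the fit, Hspe1 lost its call. Hspd1 itself had 14.60, 14.11 and 15.15 in hypoxia, against 15.89, 15.27 and 15.98 in normoxia (-1.10 ± 0.26, adjusted p = 0.0494) and kept its call without hypoxia PBS array 3, normoxia PBS array 2 or hypoxia doranidazole array 3 and lost it without any other array (adjusted p 0.0581 to 0.255). Htra2, a serine protease of the intermembrane space, had 9.57, 9.45 and 10.37 in hypoxia, against 11.93, 11.43 and 11.70 in normoxia (-1.89 ± 0.28, adjusted p = 0.00412). Its groups did not overlap, and its call held with any array left out.

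Of 26 measured genes of cholesterol synthesis, uptake and control by SREBP, 7 were higher and 0 lower, and the median was 1.08. Stard4, which carries cholesterol between membranes, had 11.83, 12.26 and 11.75 in hypoxia, against 10.54, 8.99 and 10.02 in normoxia (2.10 ± 0.34, adjusted p = 0.00728). Sqle, squalene epoxidase, an enzyme that itself needs oxygen, had 14.26, 14.54 and 13.93 in hypoxia, against 12.75, 11.58 and 12.63 in normoxia (1.93 ± 0.29, adjusted p = 0.00394). Both groups were apart in these genes, and normoxia array 2 was the lowest. Insig1, the sterol sensor that restrains SREBP, had 14.76, 15.35 and 14.95 in hypoxia, against 13.48, 11.99 and 13.79 in normoxia (1.94 ± 0.39, adjusted p = 0.0243), and Cyp51, a sterol demethylase that needs oxygen, had 16.05, 15.96 and 15.62 in hypoxia, against 14.84, 14.13 and 14.96 in normoxia (1.23 ± 0.23, adjusted p = 0.0166). Insig1 lost its call without hypoxia PBS arrays 1 or 2 (adjusted p 0.0757 to 0.138). Cyp51 lost its call without hypoxia PBS arrays 1 or 2 or normoxia PBS array 2 (adjusted p 0.0525 to 0.0985). The remaining 3 were Hsd17b7 (2.57 ± 0.54), Mvd (2.06 ± 0.48) and Lss (1.29 ± 0.27). Without hypoxia array 1 or 2 the list had 2 calls, without hypoxia array 3 it had 11, and with the 6 PBS arrays alone in the fit it had 0. In fatty acid metabolism 3 of 41 measured genes rose and 1 fell, against 1.46% higher and 0.543% lower over all genes. Hilpda, given above, Acss2 (2.47 ± 0.53, adjusted p = 0.0332), which makes acetyl-CoA from acetate, and Acsl4 (0.92 ± 0.19, adjusted p = 0.025), which activates polyunsaturated fatty acids, rose. Acss2 kept its call without hypoxia PBS array 3 or hypoxia doranidazole arrays 1 or 3 and lost it without any other array (adjusted p 0.051 to 0.131). Acsl4 lost its call without hypoxia PBS arrays 1 or 2 or normoxia PBS arrays 2 or 3 (adjusted p 0.0711 to 0.155). Cpt1a, which brings fatty acids into mitochondria for oxidation, had 5.76, 5.69 and 7.21 in hypoxia, against 7.77, 9.33 and 7.97 in normoxia (-2.14 ± 0.48, adjusted p = 0.0403), and was lower on each hypoxia array than on any normoxia array.

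Cell division genes were lower on hypoxia arrays 1 and 2 and near the normoxia level on hypoxia array 3. The median of 48 measured DNA replication and licensing genes, relative to the normoxia mean, was -1.47, -2.25 and -0.20 on hypoxia arrays 1, 2 and 3, against 0.24, -0.27 and 0.11 on the normoxia arrays. The median of 49 measured mitotic genes was -1.54, -2.46 and -0.06 on the hypoxia arrays, against 0.05, -0.18 and 0.20 on the normoxia arrays. All 48 and all 49 had a mean difference below 0, with list medians of -1.29 and -1.35, and 37 and 35 had an unadjusted p under 0.05. After adjustment 3 replication genes and 3 mitotic genes fell. Rfc4, a subunit of the clamp loader, had 9.04, 8.26 and 10.46 in hypoxia, against 11.71, 12.07 and 11.14 in normoxia (-2.39 ± 0.44, adjusted p = 0.0148). Spc24, a kinetochore protein, had 6.54, 5.83 and 7.96 in hypoxia, against 9.22, 10.02 and 8.49 in normoxia (-2.46 ± 0.49, adjusted p = 0.0235). Hypoxia array 3 was the highest of its group in both genes but still below the normoxia arrays. The others were the clamp loader subunit Rfc3 (-1.06 ± 0.23), the polymerase Pold1 (-1.28 ± 0.29), the centromere protein Cenpu (-1.62 ± 0.36) and the kinesin Kif18a (-1.76 ± 0.33). Cdt1, a licensing factor, had 9.62, 9.22 and 10.92 in hypoxia, against 11.28, 11.83 and 11.17 in normoxia (-1.51 ± 0.35, adjusted p = 0.0502), and the cyclin Ccnb2 had 9.67, 8.83 and 11.54 in hypoxia, against 12.11, 11.84 and 12.11 in normoxia (95% interval -3.13 to -0.88, adjusted p = 0.0715). Without hypoxia array 3, 39 of the 48 replication genes and 38 of the 49 mitotic genes fell, with medians of -1.90 and -1.95. Without hypoxia array 1 or 2, or normoxia array 1 or 2, 0 of either list did. What set hypoxia array 3 apart from the other hypoxia arrays was not tested.

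Genes of ribosome biogenesis were lowest on hypoxia arrays 1 and 2. Their list medians were -0.60, -1.01 and -0.25 on hypoxia arrays 1, 2 and 3, against -0.05, -0.25 and 0.35 on the normoxia arrays, and 34 of 36 measured members had a difference below 0 (median -0.59). Rrp12, which exports ribosomal subunits from the nucleus, was the 1 that passed, with 6.32, 5.29 and 6.27 in hypoxia, against 7.55, 7.39 and 8.34 in normoxia (-1.80 ± 0.34, adjusted p = 0.0174), and it lost its call without hypoxia PBS array 2 or normoxia PBS array 3 (adjusted p 0.0653 to 0.0917). Without hypoxia array 3, 13 fell. The cytosolic ribosomal proteins, which are the product of that pathway, had a median of -0.06 and 0 calls (1 at an unadjusted p under 0.05) among 51 measured. Cdkn1a and Plk2 were higher. Cdkn1a, the inhibitor p21, had 16.37, 17.17 and 16.04 in hypoxia, against 13.38, 15.28 and 15.18 in normoxia (1.92 ± 0.42, adjusted p = 0.0381), with normoxia array 1 the lowest, and it kept its call without hypoxia PBS array 3, normoxia PBS arrays 2 or 3 or hypoxia doranidazole arrays 1 or 3 and lost it without any other array (adjusted p 0.0561 to 0.218). Plk2, a stress-induced kinase and p53 target, had 13.01, 13.50 and 12.82 in hypoxia, against 9.83, 11.62 and 11.03 in normoxia (2.28 ± 0.35, adjusted p = 0.00517) and kept its call whichever array was left out. These were the 2 calls among 29 measured p53 targets and cell cycle inhibitors, whose median was 0.04. With the 6 PBS arrays alone in the fit, 0 members of that list passed.

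**Figure D3:**
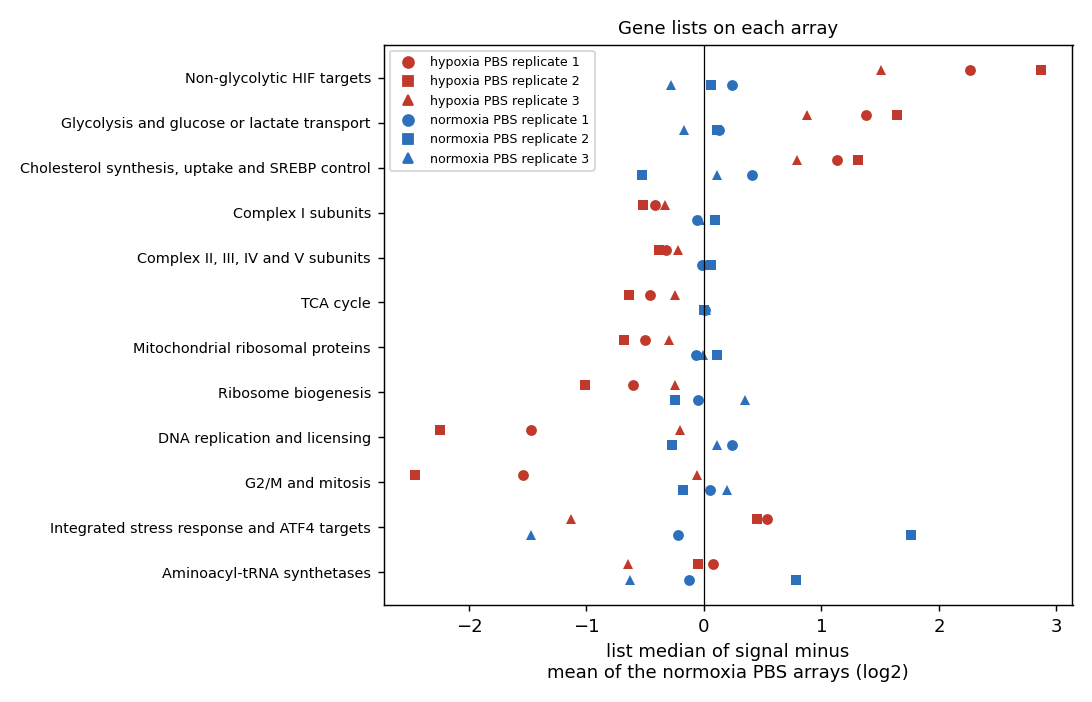
Median over the measured members of 12 gene lists of the signal minus the mean of the normoxia PBS arrays (horizontal axis, log2), on each hypoxia PBS array in red above each normoxia PBS array in blue. The HIF and glycolysis lists are high on all 3 hypoxia arrays, though least so on array 3. The replication and mitosis lists are low on hypoxia arrays 1 and 2 but not on array 3. The stress response list differs as much within the groups as between them.

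The genes that fell most were a mixed group. Plch1, a phospholipase C, had 5.11, 4.59 and 5.19 in hypoxia, against 6.77, 6.76 and 7.12 in normoxia (-1.92 ± 0.27, adjusted p = 0.00266). Smpdl3b, a phosphodiesterase of the plasma membrane, had 7.02, 6.37 and 7.95 in hypoxia, against 9.87, 8.63 and 9.54 in normoxia (-2.23 ± 0.36, adjusted p = 0.00694). Vcam1, an adhesion molecule that holds stem cells in their niche in the adult mouse brain, had 7.01, 6.88 and 9.37 in hypoxia, against 10.61, 9.90 and 11.10 in normoxia (-2.79 ± 0.52, adjusted p = 0.0166), with hypoxia array 3 nearest to normoxia. The remaining leaders were the centromere protein Cenpn (-2.40 ± 0.51), Rfc4, Spc24, the scaffold Iqgap3 (-2.16 ± 0.46), Cpt1a, Umps (-2.08 ± 0.46), the last enzyme of pyrimidine synthesis, Shmt1 (-2.02 ± 0.45), an enzyme of the folate cycle, the secreted factor Metrn (-1.88 ± 0.39) and Htra2. In each the 3 hypoxia arrays were below the normoxia arrays, as the selection of these leaders required. Plch1, Smpdl3b and Htra2 kept their calls whichever array was left out. Each of the other 9 lost its call without hypoxia array 1 (adjusted p 0.0806 to 0.179), without hypoxia array 2 (0.0565 to 0.22) and without normoxia array 1 (0.0565 to 0.139), and some without further arrays. Without hypoxia array 3 all 9 passed (adjusted p 5.43e-05 to 0.00412).

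Of 40 measured angiogenic factors and receptors 4 were higher, Adm among them, against the background of 1.46% of all genes, and 7 were higher without hypoxia array 3. Apln, the peptide ligand apelin, had 7.27, 7.84 and 7.40 in hypoxia, against 4.96, 4.38 and 4.66 in normoxia (2.84 ± 0.27, adjusted p = 0.000109). Flt1, the decoy receptor of Vegfa, had 10.85, 11.53 and 11.23 in hypoxia, against 8.60, 8.22 and 9.24 in normoxia (2.51 ± 0.32, adjusted p = 0.00116). The groups of both were well apart, and the list median was 0.09. The chemokine receptor Cxcr4 had 9.31, 9.76 and 9.04 in hypoxia, against 8.34, 6.93 and 6.21 in normoxia (2.21 ± 0.49, adjusted p = 0.0373) and kept its call without hypoxia PBS array 3, normoxia PBS array 1 or hypoxia doranidazole arrays 1 or 3 and lost it without any other array (adjusted p 0.0534 to 0.198). In the axis of insulin-like growth factors Igf1 had 10.21, 11.66 and 9.37 in hypoxia, against 8.24, 6.82 and 7.95 in normoxia (2.75 ± 0.49, adjusted p = 0.0126) beside Igfbp5. With the receptor Igf1r (1.24 ± 0.27) these were the 3 calls among 18 measured genes of that axis, whose median was 0.08. Igf1r kept its call without hypoxia PBS array 3 or hypoxia doranidazole arrays 1 or 3 and lost it without any other array (adjusted p 0.051 to 0.218). In the Notch pathway 3 of 25 measured genes rose, with a median of 0.33, and 1 rose without hypoxia array 1, hypoxia array 2, normoxia array 1 or normoxia array 3. Hey1, a Notch target, had 8.52, 8.28 and 7.94 in hypoxia, against 6.13, 5.34 and 5.96 in normoxia (2.44 ± 0.29, adjusted p = 0.000831), and Jag1, a ligand, had 13.53, 13.28 and 13.23 in hypoxia, against 11.29, 12.43 and 11.86 in normoxia (1.48 ± 0.29, adjusted p = 0.0206). Jag1 lost its call without hypoxia PBS arrays 1 or 2 or normoxia PBS arrays 1 or 3 (adjusted p 0.0624 to 0.111). The ligand Dner was the other, with 2.91 ± 0.64, and hypoxia array 3 at 5.04 lay near the normoxia arrays. Dner kept its call without hypoxia PBS array 3 or hypoxia doranidazole arrays 1 or 3 and lost it without any other array (adjusted p 0.0533 to 0.2). Adamts4, a protease that cuts proteoglycans of brain matrix, had 11.73, 11.78 and 10.35 in hypoxia, against 8.83, 7.68 and 8.83 in normoxia (2.84 ± 0.39, adjusted p = 0.00208), and normoxia array 2 was the lowest.

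Of 36 measured neural and glioma stem cell genes 3 rose and 0 fell, with a median of 0.12, and 0 rose with the 6 PBS arrays alone in the fit. Sox2 had a difference of 0.42 ± 0.31 (95% interval -0.27 to 1.10) and Nes, the filament nestin, had 13.49, 13.18 and 13.79 in hypoxia, against 13.18, 11.48 and 13.74 in normoxia (0.68 ± 0.45, 95% interval -0.28 to 1.65). Sox9, a transcription factor of neural stem cells and astrocytes, had 15.70, 16.27 and 15.41 in hypoxia, against 14.48, 14.87 and 14.16 in normoxia (1.29 ± 0.24, adjusted p = 0.0161) and lost its call without hypoxia PBS arrays 1 or 2 or normoxia PBS arrays 1 or 3 (adjusted p 0.0604 to 0.0859). The others, Id4 (1.52 ± 0.36, adjusted p = 0.0487) and Sox4 (0.97 ± 0.21, adjusted p = 0.0381), passed narrowly. Id4 kept its call without hypoxia PBS array 3 or hypoxia doranidazole array 3 and lost it without any other array (adjusted p 0.0555 to 0.248). Sox4 kept its call without hypoxia PBS array 3 or hypoxia doranidazole arrays 1, 2 or 3 and lost it without any other array (adjusted p 0.0578 to 0.218). Ndrg2, which is high in astrocytes, had 12.43, 13.40 and 11.72 in hypoxia, against 9.37, 7.73 and 7.88 in normoxia (4.19 ± 0.47, adjusted p = 0.000449). It was the largest change on the astrocyte list, whose median was -0.03. The defining astrocyte marker Gfap had a difference of -0.45 ± 0.16 (95% interval -0.81 to -0.10) and did not pass (adjusted p = 0.199). Its signals were low, with means of 3.36 in hypoxia and 3.82 in normoxia. Of the markers of oligodendrocyte lineage (19 measured), microglia (14) and fibroblasts (15), 0 passed, and 0 had an unadjusted p under 0.05. Of 21 neuron markers Nefl, a neurofilament, rose (1.26 ± 0.28, adjusted p = 0.038), and of 15 endothelial markers Flt1 did. Nefl kept its call without hypoxia PBS array 3, normoxia PBS array 3 or hypoxia doranidazole arrays 1 or 3 and lost it without any other array (adjusted p 0.051 to 0.152). The astrocyte list (17 measured) had 2 calls, Ndrg2 and Sox9. The part of these cell types in the results was not tested.

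Of 48 measured NRF2 targets and antioxidant genes, Maff was higher (1.77 ± 0.38, adjusted p = 0.0362) and the mitochondrial peroxiredoxin Prdx3 lower, with 9.53, 9.06 and 9.54 in hypoxia, against 10.48, 10.83 and 10.35 in normoxia (-1.18 ± 0.24, adjusted p = 0.0254), and the median was 0.12. Over all genes 1.46% were higher and 0.543% lower, so 1 rise in a list of this size is near the background. Of the NRF2 list 6 members rose without hypoxia array 3. Prdx3 lost its call without hypoxia PBS arrays 1 or 2 or normoxia PBS arrays 1 or 2 (adjusted p 0.0718 to 0.154). Maff lost its call without hypoxia PBS arrays 1 or 2, normoxia PBS arrays 2 or 3, hypoxia doranidazole array 2 or normoxia doranidazole array 2 (adjusted p 0.051 to 0.206). Txnrd1, thioredoxin reductase, had 13.78, 13.66 and 13.41 in hypoxia, against 13.90, 14.11 and 14.28 in normoxia (-0.48 ± 0.23, 95% interval -0.97 to 0.01). Hmox1, which breaks down heme and responds to both HIF and oxidants, had 13.75, 14.02 and 10.84 in hypoxia, against 10.94, 11.33 and 9.24 in normoxia (2.36 ± 0.75, adjusted p = 0.139), with hypoxia array 3 within the normoxia range, and it passed without that array (adjusted p = 0.00352). Steap3, an iron reductase, had 5.23, 6.21 and 7.44 in hypoxia, against 8.62, 7.42 and 9.13 in normoxia (-2.10 ± 0.62, adjusted p = 0.114). Of 32 measured genes of the unfolded protein response, Xbp1 (1.22 ± 0.28, adjusted p = 0.0488) and Selenok (1.07 ± 0.22, adjusted p = 0.0262) passed, with a median of 0.30. Of them 7 rose without hypoxia array 3, and without hypoxia array 1, hypoxia array 2, normoxia array 2 or normoxia array 3, 0 did. Xbp1 kept its call without hypoxia PBS array 3 and lost it without any other array (adjusted p 0.051 to 0.26). Selenok lost its call without hypoxia PBS arrays 1 or 2 or normoxia PBS arrays 2 or 3 (adjusted p 0.0583 to 0.156). Among 33 immediate early genes Ier3 alone passed, 1 of 33 higher against 1.46% of all genes. Its signals were 14.21, 15.38 and 13.21 in hypoxia, against 10.51, 11.16 and 9.19 in normoxia (3.98 ± 0.53, adjusted p = 0.00173). Of 23 RAS-ERK output and feedback genes, 0 passed (6 at an unadjusted p under 0.05), with a median of 0.29, in cells that all carry the Ras oncogene, and without normoxia array 3, 2 of them rose. Of 22 clock genes, Bhlhe40, Bhlhe41 and Rora (1.90 ± 0.36) rose and Nr1d2 (-0.99 ± 0.18, adjusted p = 0.0161) fell. There were 6 clock genes and 3 immediate early genes that rose without hypoxia array 3. Nr1d2 lost its call without hypoxia PBS arrays 1 or 2 or normoxia PBS arrays 2 or 3 (adjusted p 0.0645 to 0.0965). Rora lost its call without hypoxia PBS arrays 1 or 2 or normoxia PBS array 3 (adjusted p 0.0668 to 0.101).

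The 6 doranidazole arrays offer a comparison of hypoxia with normoxia in cells that share no array with the PBS groups. Both comparisons take their spread from the same fit over 12 arrays. With doranidazole far more genes passed, 2524 higher in hypoxia (12.9%) and 3400 lower (17.4%). Of the 285 genes that were higher in hypoxia with PBS, 78 were higher there, 65 were lower and 142 did not pass. Of the 106 genes that were lower with PBS, 64 were lower there, 4 were higher and 38 did not pass. Adm (5.12 ± 0.56 with doranidazole), Kdm3a (2.76 ± 0.25), P4ha1 (2.39 ± 0.27) and Jmjd6 (2.56 ± 0.25) kept differences close to those with PBS, whereas Car9 had 6.88, 6.68 and 7.57 in hypoxia and 5.42, 5.47 and 4.78 in normoxia with the drug (1.82 ± 0.59). Igfbp5 turned round, with 6.75, 5.36 and 5.75 in hypoxia and 10.04, 10.28 and 9.98 in normoxia (-4.15 ± 0.46). The difference between the oxygen responses, doranidazole minus PBS, was positive for 964 genes (4.94%) and negative for 1747 (8.96%) of all 19505. It was negative for 176 and positive for 5 of the 285 genes, and positive for 19 and negative for 8 of the 106. That test uses the PBS arrays on which these genes were chosen, which by itself draws the difference away from the PBS response.

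**Figure D4:**
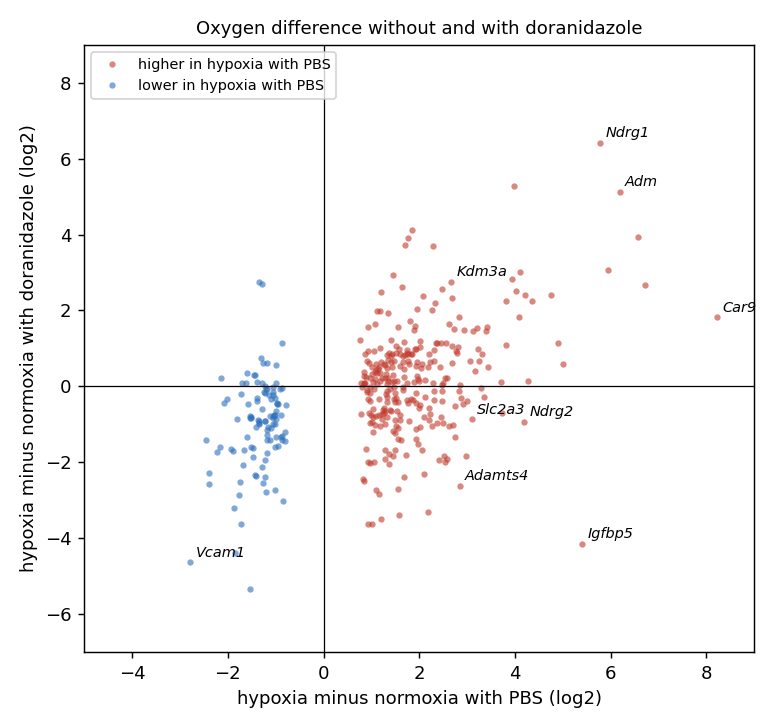
Difference between hypoxia and normoxia on the log2 scale with PBS (horizontal axis) and with doranidazole (vertical axis), 1 point for each of the 285 genes that were higher (red) and the 106 that were lower (blue) with PBS. The red points spread to both sides of 0 on the vertical axis, with 78 passing above and 65 below it, and most blue points lie below 0.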

How the data were processed

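RNA of 12 samples was measured on Clariom S Mouse arrays, where each probe set reports a gene by several short oligonucleotides. Per the labels the arrays were processed with Transcriptome Analysis Console, and the authors deposited log2 signals of 22206 probe sets in 2 tables that hold equal values (0 probe sets differ). The sources used here do not state how signals were summarized and scaled. The number of arrays limits the precision. The values were fitted as deposited with limma 3.58.1 in R 4.3.3 over 12 arrays and 4 groups with a shared prior, two-sided, with Benjamini-Hochberg adjustment over the 22206 probe sets and a threshold of 0.05 on the adjusted p. Differences are hypoxia minus normoxia, ± the standard error. A gene with several probe sets is given by that with the highest mean, and 2634 probe sets without a symbol were counted but not named.

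The genes and the 43 lists (1257 of 1366 symbols measured) were chosen with earlier results of these data known. Genes were named if among the 12 largest changes in each direction that passed without overlap of the groups. Others were named if on the glycolysis, HIF target or HIF regulator list, or among the 4 members with the smallest p of another list. Markers and anchors were named as well. P3h3, Loxl3, Kdm5b, Tet1, Alkbh5, Hsd17b7, Mvd and Lss, and the genes of the closing section outside the lists, were named after their values were seen. Alternatives were quantile, median and cyclic loess scaling, dim probe sets left out (below the 30th percentile), other priors, array weights, other sets of arrays, the replicate number as a block, other call rules, and each array left out. Deviations from the group means of same-numbered arrays correlated at -0.0205, 0.264 and 0.356, so the numbers were not taken to pair the PBS groups.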

Additional observations from a re-analysis of the deposited data

Results flagged for a closer look

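The difference between hypoxia and normoxia was not the same with doranidazole as with PBS for 77 of the 152 genes named here (adjusted p 4.49e-06 to 0.0431 in limma, n = 3 arrays a group). Over all 19505 genes it was positive for 4.94% and negative for 8.96%. Each value below is the oxygen difference with doranidazole minus that with PBS on the log2 scale, and most are negative for genes that rose with PBS. The genes were chosen in part on the PBS arrays that enter this test, so the values lean away from the PBS response, and no explanation was weighed.

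Igfbp5 had the largest of these, -9.56, with 6.75, 5.36 and 5.75 in hypoxia and 10.04, 10.28 and 9.98 in normoxia under doranidazole. Car9 had -6.41, with 6.88, 6.68 and 7.57 in hypoxia and 5.42, 5.47 and 4.78 in normoxia under doranidazole. In glycolysis and lactate transport the values were -4.06 for Slc16a3, -3.95 for Slc2a3, -3.76 for Pfkp, -1.92 for Pfkl, -2.13 for Pfkm and -1.50 for Pfkfb3. Further along that pathway they were -1.10 for Tpi1, -1.44 for Pgk1, -1.34 for Pgam1, -0.99 for Ldha and -2.03 for Ldhb, with a positive one of 1.09 for Slc16a1 and -3.71 for Gys1 in glycogen synthesis. The pyruvate dehydrogenase kinases had -2.35 for Pdk1 and -1.64 for Pdk3. Among the oxygen sensors they were -1.85 for Egln1 and -2.25 for Egln3. Other HIF targets had -2.63 for Ak4, -4.14 for Stc1, -1.80 for Fam162a, -2.73 for Bnip3l, -4.45 for Rcor2 and -3.60 for Bhlhe40. Further HIF targets and Cxcr4 had -2.24 for Mxi1, -1.67 for Hilpda, -0.98 for Mif, -2.16 for Zfp395 and -3.10 for Cxcr4. Collagen-modifying enzymes had -2.09 for P4ha2, -2.93 for Plod1, -2.58 for Plod2, -1.95 for P3h3 and -3.80 for Loxl3, and the collagen chain had -2.28 for Col4a2. The demethylases had -1.47 for Kdm4b, -2.22 for Kdm5b and -1.96 for Tet1. In cholesterol and fatty acid metabolism the values were -3.05 for Sqle, -2.90 for Stard4, -2.08 for Cyp51, -3.74 for Mvd and -2.27 for Lss, with -2.60 for Acss2 and -2.91 for Acsl4 and a positive 2.35 for Cpt1a. Secreted factors and receptors had -2.97 for Apln, -4.35 for Flt1, -4.08 for Igf1, -1.87 for Igf1r and -5.46 for Adamts4, and the Notch genes -1.92 for Hey1, -2.70 for Jag1 and -3.36 for Dner. The stem cell and astrocyte genes had -3.99 for Sox2, -3.21 for Sox9, -1.16 for Sox4, -2.57 for Id4, -5.12 for Ndrg2 and -2.57 for Aqp4, that for the neuron marker -1.82 for Nefl, and a positive 0.94 for Gfap. Of other genes that rose with PBS the values were -4.42 for Kbtbd11, -2.14 for Ndufv3 and -1.94 for Xbp1, with a positive one of 2.13 for Maff. Of genes that fell with PBS, positive values were 1.72 for Cenpu, 1.52 for Hspe1 and 1.54 for Nr1d2. Cdt1 and Txnrd1, which missed the threshold with PBS, had 2.82 and 2.99. Genes outside the lists had -3.63 for Grhpr, -2.46 for Proser2, -3.33 for Prelid2, -1.67 for Tnfaip3 and -1.89 for Prex2.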

How the results depend on the processing

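Against 439 (324 higher, 115 lower) probe sets in the PBS comparison, quantile, median and cyclic loess scaling, the dim filter, a trended and robust prior, 1 probe set per gene and the added fold limit gave between 383 and 531. Array weights gave 2273 (1039 higher, 1234 lower), the 6 PBS arrays alone 115 (106 higher, 9 lower), and the thresholds of the study 1051 (550 higher, 501 lower). The unpaired test without a shared prior gave 0 in either direction, with 2497 at an unadjusted p under 0.05 (3044 in limma). The replicate block over all 12 arrays gave 564 (372 higher, 192 lower), and over the 6 PBS arrays 343 (255 higher, 88 lower). The numbers are not known to pair the cultures. Hypoxia arrays 2 and 3 correlated best with their own number, and hypoxia array 1 did not. With 1 array left out the counts ran over 151 to 1432 in all, 137 to 654 higher and 10 to 778 lower. For hypoxia against normoxia with doranidazole (6656) they ran over 4844 to 7672, with 4247 at the thresholds of the study and 4090 with the fold limit, and for the difference of the responses (3003) over 2182 to 4364.

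Of 152 named genes, 115 passed. None reversed under these settings while passing. Calls were lost by 62 with the 6 PBS arrays alone, 36 with the block over them, 7 with equal medians, 6 with quantile scaling, 50 without hypoxia PBS array 1 and 50 without hypoxia PBS array 2. Without normoxia PBS array 1, 2 or 3, 34 to 35 were lost. Calls were gained by 8 without hypoxia PBS array 3, 12 with array weights, 7 with the block over all 12 arrays and 5 with the block over the 6, among them Ddit4, Ero1a and Hmox1 under both blocks (adjusted p 0.00881 to 0.0368). The cause of these shifts was not tested. With 3 arrays a group, a difference that missed the threshold is not shown to be absent, and near the lowest signals a change is hard to measure.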

Other observations

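Of the 285 genes that were higher in hypoxia with PBS, 196 are on none of the 43 lists, and of the 106 that were lower, 88. The examples here were chosen for size after their values were seen, among genes that kept their calls whichever array was left out. Grhpr, which reduces glyoxylate and hydroxypyruvate, had 11.69, 11.94 and 11.38 in hypoxia, against 8.80, 8.20 and 7.95 in normoxia (3.35 ± 0.33, adjusted p = 0.000161). Prelid2 had 6.13, 6.58 and 5.31 in hypoxia, against 2.83, 2.77 and 2.53 in normoxia (3.30 ± 0.27, adjusted p = 5.26e-05) and Proser2 6.92, 8.14 and 6.41 in hypoxia, against 3.93, 4.20 and 3.42 in normoxia (3.30 ± 0.36, adjusted p = 0.000296). Their hypoxia arrays lay far above the normoxia arrays, which for Prelid2 were near the lowest signals of the array. Tnfaip3, an inhibitor of NF-kappaB signalling, had 7.76, 8.44 and 8.04 in hypoxia, against 5.31, 4.38 and 4.91 in normoxia (3.21 ± 0.33, adjusted p = 0.000199), and Tlcd3a 13.27, 13.76 and 12.74 in hypoxia, against 10.92, 8.63 and 10.86 in normoxia (3.12 ± 0.51, adjusted p = 0.00733), with normoxia array 2 the lowest. Tlcd3a lost its call with the 6 PBS arrays alone (adjusted p = 0.0776). Prex2, an activator of Rac, was lower, with 7.03, 6.62 and 7.15 in hypoxia, against 8.68, 8.82 and 8.47 in normoxia (-1.73 ± 0.23, adjusted p = 0.00173), and its 3 hypoxia arrays were all below normoxia.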
